A study of Mus with 2 samples.

Results

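The 38 collagen chain genes other than type IV were followed across the cells of newborn mouse kidneys whose genotype targets Rbpj for deletion in the stroma. They were chosen by name alone: every gene symbol made of Col, a number, a and a number was taken, and the Col4a genes were left out. That gave 38 of the 28693 features counted. UMIs (unique molecular identifiers, 1 per captured RNA molecule) were counted in 3' single-cell libraries of 2 kidney samples at postnatal day 0, called library 1 and library 2 here. Both carried the genotype Rbpj c/- ; Foxd1cre/+, in which Cre expressed from the Foxd1 locus, active in progenitors of the renal stroma, is meant to delete the floxed Rbpj copy and the other copy is already null. The study's controls were Rbpj c/+ ; Foxd1cre/+, so that both groups carry 1 Foxd1cre allele. The control libraries were not analysed here. All comparisons are therefore between kinds of cell within mutant kidneys, and none measures what the deletion does. The labels do not say whether the 2 samples came from separate litters or pools. The p-values rest only on how differences between kinds of cell vary between these 2 samples, with the spread shared over groups and genes.

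Collagens are secreted helical trimers. Fibrillar chains (types I, II, III, V, XI, XXIV and XXVII) build the cable-like fibrils of connective tissue, and fibril-associated collagens (types IX, XII, XIV and XVI among them) decorate their surface. Type VI forms beaded filaments around cells, type VIII forms short-chain networks, the multiplexins XV and XVIII sit in or beside basement membranes, and a transmembrane group (XIII, XVII, XXIII and XXV) is anchored in the cell membrane. In the kidney, fibrillar collagen is known above all as a product of interstitial fibroblasts and of scar tissue.

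Library 1 held 163405630 UMIs and library 2 held 135436576. After filters on depth, mitochondrial share and doublets, 5910 and 4937 cells remained. Of the 6910 and 5917 barcodes at the depth minimum, before the other filters, 8 occurred in both libraries. Cells were placed in classes by marker genes that include no collagen, and each name below means a cell that resembles its class by those markers. Stroma-like cells numbered 1374 and 1149, or 23.2% and 23.3% of the cells. They held 12.5% and 12.7% of the UMIs, at a median depth of 9869.5 and 9426 UMIs per cell. No class could be given to 16.6% and 15.2% of the cells. A mesothelial gate held 9 and 7 cells, too few to test, so that the classes compared below are the other 10. Rbpj, the targeted gene, stood at 28.9 and 27.7 UMIs per 1000000 UMIs (CPM) in stroma-like cells, against 61.5 and 58.0 CPM in nephron progenitor-like and 28.5 and 29.9 CPM in proximal tubule-like cells. Counts from 3' ends cannot show whether a transcript lacks an internal exon, so this does not test the deletion.

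All 38 genes had UMIs in the kept cells, and 33 reached at least 5 CPM in both libraries in 1 or more classes or stromal subtypes. Of these 33, 22 had their highest mean level in stroma-like cells and 11 in another class. The same share over all genes was not computed. A gene could also enter the 33 through a stromal subtype alone, as Col6a5 did, at a mean of 1.94 CPM in stroma-like cells. Col10a1, Col17a1, Col19a1, Col20a1 and Col28a1 stayed below that level in every class and subtype. Col17a1, a transmembrane collagen of epithelial anchoring, was the highest of these in proximal tubule-like cells, at 2.24 and 2.83 CPM. All 38 matched a RefSeq gene on GRCm38.p6, the build called mm10. Several lie side by side: Col3a1 (chromosome 1, 45311538 to 45349706) ends 24.6 kb before Col5a2 (45374331 to 45503282), and Col6a2 lies 85.2 kb from Col6a1 on chromosome 10. Col6a6, Col6a5 and Col6a4 form a row on chromosome 9 between 105689417 and 106096828.

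Stroma-like cells carried most collagen RNA. The 38 genes together made up 0.737% and 0.782% of all UMIs in stroma-like cells, 0.125% and 0.142% in podocyte-like cells, and 0.0473% and 0.0467% in endothelial-like cells. Erythroid-like cells, which should make none, were at 0.00387% and 0.00368%. Stroma-like cells held 67.2% and 68.5% of all collagen UMIs in the kept cells. Within the stroma, the 40 and 27 cells gated as adventitial-type fibroblasts stood apart at 6.01% and 5.67%. They were followed by interstitial stroma-like cells (1.75% and 2.30%), medullary (0.752% and 0.903%), mesangial (0.683% and 0.722%), contractile mural (0.477% and 0.556%) and cortical stroma-like cells (0.370% and 0.407%). In these summed shares the libraries kept this order of subtypes, with no overlap between neighbours. Adventitial-type cells were 2.63% of the stroma-like cells and held 18.1% of their collagen UMIs, as means of the libraries, while cortical stroma-like cells were 29.6% and held 15.3%. Of the stroma-like cells, 43.0% passed no subtype gate, and these held 42.0% of the stromal collagen UMIs.

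**Figure D1:**
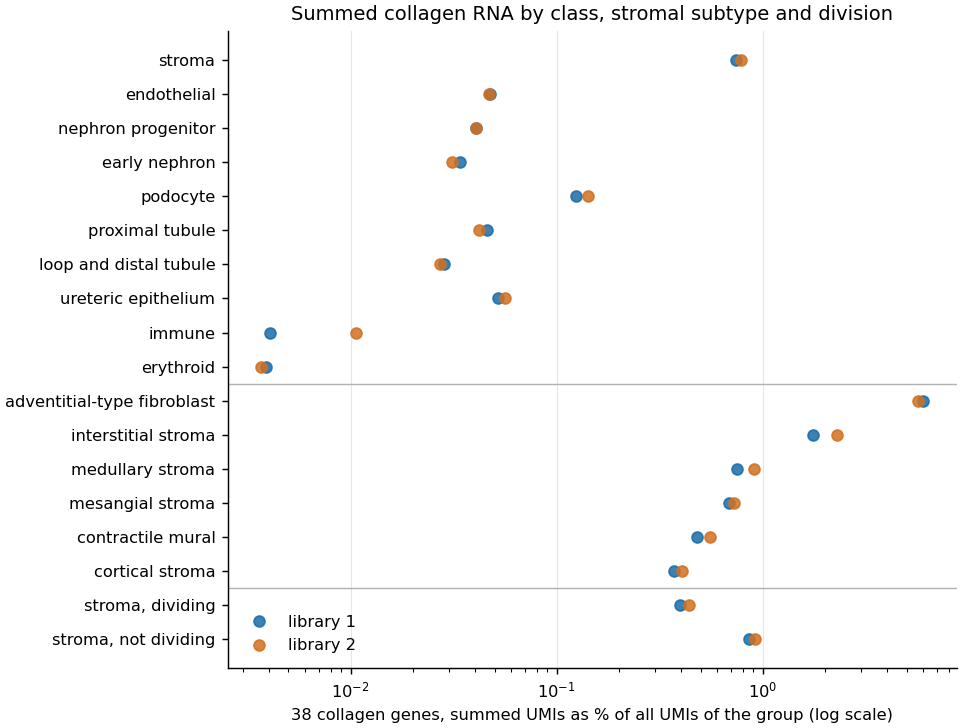
Summed UMIs of the 38 collagen genes as a percentage of all UMIs (x axis, log scale) for 10 classes, 6 stromal subtypes and dividing or other stroma-like cells (y axis), with 1 point per library. Adventitial-type fibroblasts sit near 6% in both libraries and erythroid-like cells below 0.01%, and the points of the libraries lie close together except in immune-like cells.

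In single cells the median summed share was 0.354% and 0.361% in cortical stroma-like cells, 0.436% and 0.277% in contractile mural cells and 5.62% and 5.71% in adventitial-type cells, and the single highest stroma-like cell reached 14.4%. By these medians mural cells lay below cortical stroma-like cells in library 2, unlike in the summed shares. The spread within the stroma was wide, with a 10th percentile of 0.198% and 0.191% and a 90th of 1.58% and 1.72%. Collagen UMIs also lay outside the kept cells: barcodes of 100 to 500 UMIs, too shallow to be called cells, held 0.0984% and 0.109% of their UMIs in these genes. That is above the share in every one of the 10 classes other than stroma-like and podocyte-like cells. Whether the UMIs of these barcodes are free RNA was not tested.

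To ask which collagens stand higher in the stroma, UMI sums per library and class were compared with edgeR's quasi-likelihood test, and the Benjamini-Hochberg adjustment covered the 15160 genes that passed its filter. Of the 32 members tested, 27 were higher in stroma-like cells than in the mean of the other 9 classes and 1 was lower, where 32.5% of all genes tested were higher and 14.6% lower, or 47.1% in either direction. Their median log2 difference was 5.47, against 0.23 over all genes, and it was 4.63 with each class at 0 UMIs set to the limit that 3 counts give. The mean is taken over log levels with equal weight per class, so classes near 0 lower it. Of the 32 members, 18 had 0 UMIs in a class. A member higher than this mean need not be highest in stroma-like cells. Pairwise, 25 members were higher and 3 lower than in endothelial-like cells (26.7% and 26.1% of all genes, 52.7% together), and 23 higher and 6 lower than in nephron progenitor-like cells (27.9% and 27.8%, 55.7% together). Against podocyte-like cells 26 were higher and 2 lower (32.0% and 28.5%, 60.5% together), and against ureteric epithelium-like cells 25 and 2 (28.2% and 29.6%, 57.8% together). 6 genes had too few UMIs for this test: Col6a5, Col10a1, Col19a1, Col20a1, Col22a1 and Col28a1.

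**Figure D2:**
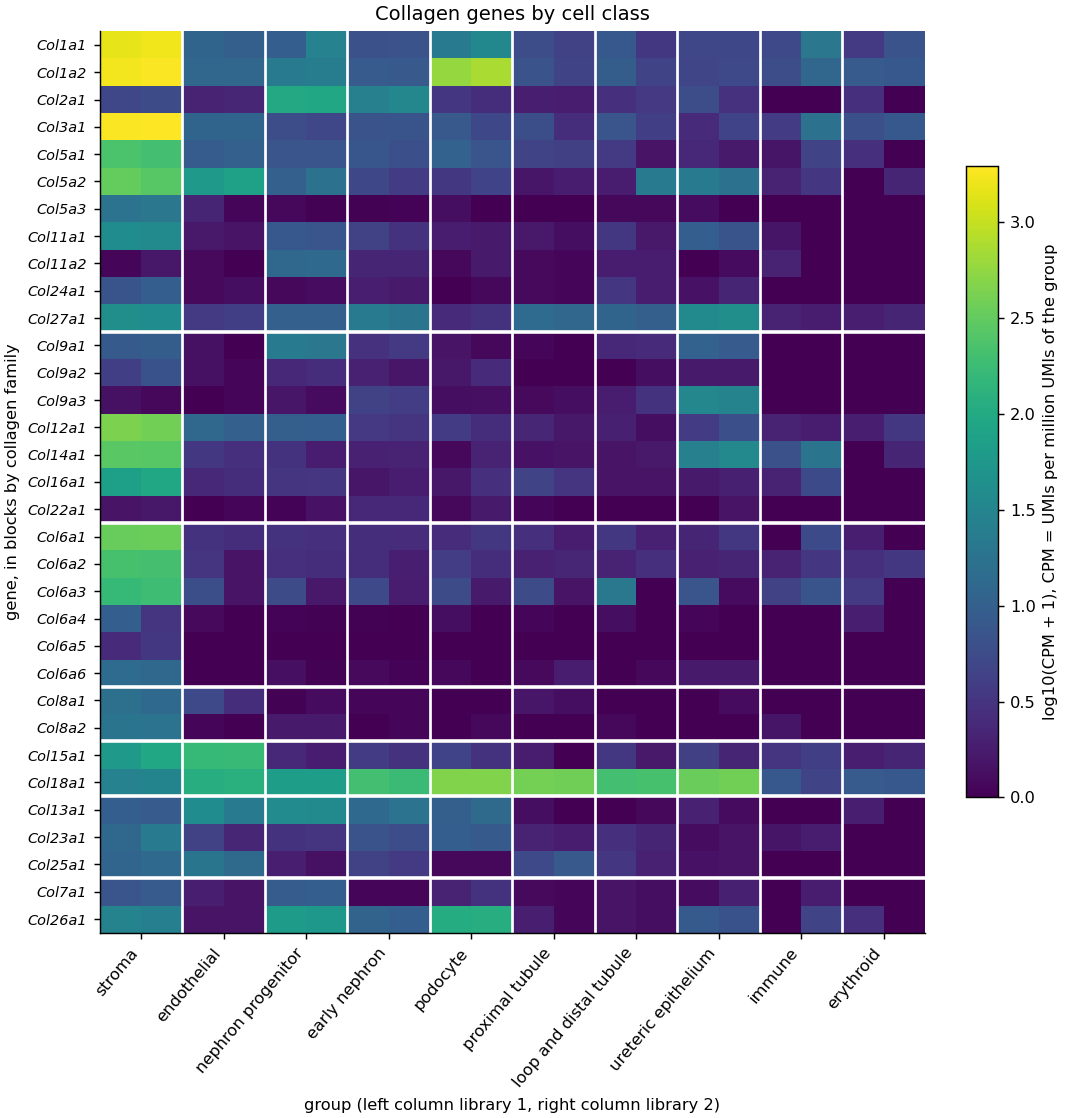
Level of the 33 described collagen genes (rows, in blocks by family) in 10 cell classes (columns, library 1 left and library 2 right), as log10(CPM + 1). Most rows are brightest in the stroma columns, Col1a2 is also bright in podocyte-like cells, and Col18a1 is darkest in stroma, immune and erythroid-like cells.

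Among the fibrillar chains, 9 of 11 were higher in stroma-like cells than in the mean of the other classes and none was lower. Col3a1, the chain of type III collagen that forms thin fibrils with type I, stood at 1845 and 1956 CPM in stroma-like cells and at no more than 15.9 CPM in any of the other 9 classes in either library. Its log2 difference from the mean of the other classes was 8.07 ± 0.11 (SE; edgeR adjusted p = 2.3e-23). Col1a1, the main chain of type I collagen, stood at 1458 and 1659 CPM in stroma-like cells, with a log2 difference of 7.24 ± 0.15 (edgeR adjusted p = 3.4e-20). Both genes separated stroma-like cells from each of the other 9 classes without overlap. The few mesothelial-gated cells, outside these classes, had Col3a1 at 8800 and 3536 CPM.

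The chains of the minor fibrillar types followed at lower levels. Col5a1, which starts type I fibrils as part of type V collagen, stood at 230.9 and 204.0 CPM in stroma-like cells and at 9.89 CPM or less in the other 9 classes. Col11a1 was at 39.3 and 35.7 CPM, with ureteric epithelium-like cells next at 8.50 and 6.06. Col24a1 was at 6.18 and 8.69 CPM. Col27a1, a fibrillar chain of cartilage and developing organs, broke the pattern: stroma-like cells at 40.9 and 38.8 CPM were matched by ureteric epithelium-like cells at 36.5 and 41.2, and early nephron-like cells followed at 21.9 and 17.4. It did not pass the test between stroma-like and ureteric epithelium-like cells, although it was higher in the stroma than in the mean of the other classes (log2 difference 2.47 ± 0.11, edgeR adjusted p = 2.7e-14).

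Col1a2, the second chain of type I collagen, departed from its partner in podocyte-like cells. It stood at 1687 and 1866 CPM in stroma-like cells and at 582.9 and 745.5 CPM in podocyte-like cells, the epithelial cells that cover the glomerular capillaries. Col1a1 in the same podocyte-like cells was at 21.4 and 33.9 CPM. The count of Col1a2 over Col1a1 was 27.2 (95% counting interval 22.9 to 32.7) and 22.0 (19.0 to 25.7) in podocyte-like cells, against 1.16 (1.14 to 1.18) and 1.12 (1.10 to 1.15) in stroma-like cells. In the barcodes of 100 to 500 UMIs it was 1.08 and 1.01. The intervals of podocyte-like cells lay above those of stroma-like cells and of the shallow barcodes in both libraries.

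The Col1a2 signal was spread over many podocyte-like cells. With each cell thinned to 4000 UMIs, 67.0% and 66.8% of podocyte-like cells had a Col1a2 UMI (exact 95% intervals 62.5 to 71.4 and 61.4 to 71.8), against 4.55% and 3.45% of erythroid-like cells and 92.8% and 92.1% of stroma-like cells. For Col1a1 the shares were 5.75% and 6.04% in podocyte-like, 0.758% and 3.45% in erythroid-like, and 90.2% and 91.1% in stroma-like cells. Median depth before thinning was 7412 and 8167 UMIs in podocyte-like cells and 7367 and 6219.5 in erythroid-like cells. Thinning left out 16 and 10 podocyte-like cells, 27 and 20 erythroid-like cells and 51 and 53 stroma-like cells with fewer UMIs. Before thinning, 368 and 258 podocyte-like cells held a Col1a2 UMI, and the single richest cell held 4.48% and 6.05% of the class's Col1a2 UMIs. The 10 stroma markers summed to 223 and 229 CPM in podocyte-like cells and to 2050 and 2094 CPM in stroma-like cells. They reached 1370 and 1408 CPM in endothelial-like and 724.5 and 795 CPM in nephron progenitor-like cells, with none of the 10 at 0, and their part in the collagen values of those classes was not tested. The 6 contractile mural markers summed to 319.9 and 473.7 CPM in podocyte-like cells, against 131.7 and 60.5 CPM in endothelial-like and 2576 and 2285 CPM in stroma-like cells. Their part in the Col1a2 values was not tested. Col1a2 was still higher in stroma-like than in podocyte-like cells, by 1.54 ± 0.12 on the log2 scale (edgeR adjusted p = 4.1e-10), against 5.97 ± 0.29 for Col1a1 (1.5e-13).

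**Figure D3:**
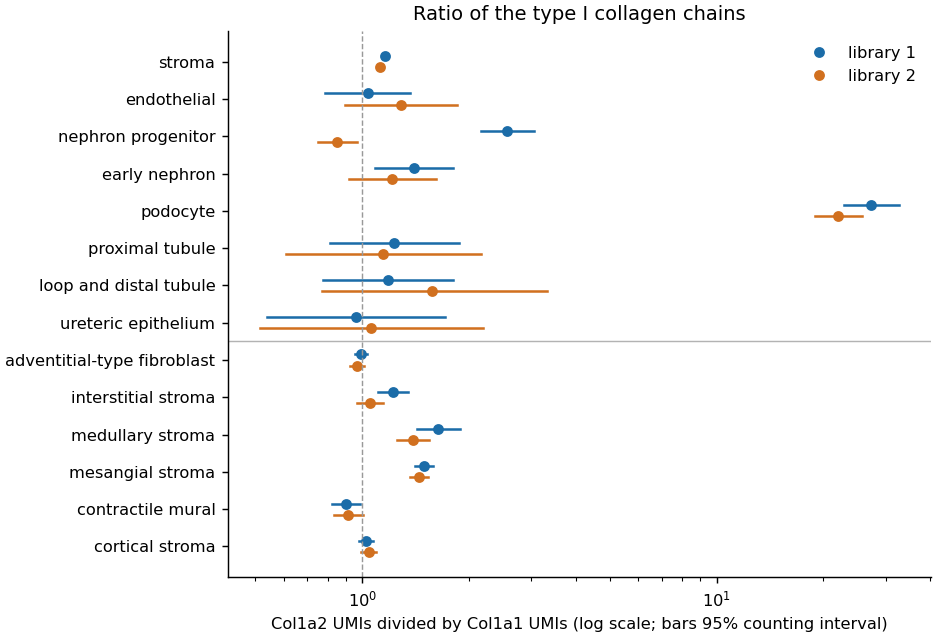
Col1a2 UMIs divided by Col1a1 UMIs (x axis, log scale) in 8 classes and 6 stromal subtypes (y axis), with 1 point per library and its 95% counting interval as a bar. Podocyte-like cells lie at 27.2 and 22.0, all other groups lie between 0.852 and 2.56, and in nephron progenitor-like cells the libraries differ (2.56 and 0.852).

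In nephron progenitor-like cells the libraries differed in Col1a1 but little in Col1a2. Col1a1 was at 8.73 CPM in library 1 and 27.7 CPM in library 2, from 190 UMIs in 109 cells and 547 UMIs in 296 cells, while Col1a2 was at 22.4 and 23.6 CPM. The 1 cell with the most Col1a1 held 14.2% and 4.02% of these UMIs. With 1 library per value, the difference has no replicate behind it.

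Type V chains were also unevenly shared. Col5a2, the partner of Col5a1, stood at 321.2 and 271.8 CPM in stroma-like cells, 60.2 and 76.2 in endothelial-like cells and 21.4 and 16.0 in ureteric epithelium-like cells. Its count over Col5a1 was 1.39 and 1.33 in stroma-like cells, 7.41 (5.87 to 9.46) and 8.38 (6.37 to 11.2) in endothelial-like cells, and 16.2 (8.31 to 36.2) and 22.0 (7.21 to 109.4) in ureteric epithelium-like cells. In barcodes of 100 to 500 UMIs it was 1.39 and 1.401, close to the stroma. In loop and distal tubule-like cells Col5a2 was at 0.813 CPM in library 1 and 21.0 CPM in library 2, where 123 UMIs came from 41 cells. Col5a3, the third type V chain, was at 17.1 and 19.3 CPM in stroma-like cells and at 1.20 CPM or less in the other 9 classes.

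The chains of the type VI filament were low outside the stroma, with the exception of Col6a3 in library 1. All 5 tested type VI genes were higher in stroma-like cells than in the mean of the other classes. Col6a1 stood at 337.4 and 352.3 CPM (log2 difference 7.39 ± 0.11, edgeR adjusted p = 1.0e-22), Col6a2 at 215.0 and 209.0 CPM and Col6a3, the long chain that completes the trimer, at 159.3 and 185.7 CPM. In the other 9 classes Col6a1 and Col6a2 stayed at 4.54 CPM or less. Col6a3 was higher in library 1 than in library 2 in 8 of the 9 other classes: it reached 19.8 and 0 CPM in loop and distal tubule-like cells, 6.45 and 0.242 in ureteric epithelium-like cells, and 4.70 and 0.471 in proximal tubule-like cells. The 122 loop and distal UMIs of library 1 came from 46 cells, the richest of which held 9.02% of them. Col6a3 over Col6a1 in loop and distal tubule-like cells was 8.13 (4.74 to 14.98) in library 1, and 0.472 and 0.527 in stroma-like cells. What differs between the libraries was not tested.

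The 3 type VI genes in the chromosome 9 row were low. Col6a6 was at 13.0 and 11.8 CPM in stroma-like cells, and with 0 UMIs in both libraries of endothelial-like cells the difference was at least 67.5-fold. Col6a5 was at 1.44 and 2.43 CPM in stroma-like cells and at 0 UMIs in the other 9 classes. Col6a4 was at 8.58 CPM in library 1 and 2.17 CPM in library 2.

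Of the fibril-associated collagens, 5 of the 6 tested were higher in stroma-like cells than in the mean of the other classes. That does not make stroma the highest class for each. Col9a1 was highest in nephron progenitor-like cells, with only 9.11% and 12.8% of its UMIs in stroma-like cells. Col12a1, which links fibrils in load-bearing tissue, stood at 439.7 and 390.1 CPM in stroma-like cells and at 11.5 CPM or less in the other 9 classes. Col16a1 was at 71.9 and 92.3 CPM. Col14a1, which regulates fibril diameter, was at 278.7 and 275.0 CPM in stroma-like cells and, next, at 26.1 and 34.7 CPM in ureteric epithelium-like cells, from 178 and 143 UMIs in 45 and 40 cells. Col9a3 took the opposite course, at 32.2 and 28.9 CPM in ureteric epithelium-like cells and 0.412 and 0.174 CPM in stroma-like cells (log2 difference -6.48 ± 0.39, edgeR adjusted p = 2.4e-11).

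Col2a1, Col9a1 and Col11a2, named here for their levels, were highest in nephron progenitor-like cells, the mesenchyme that gives rise to nephrons. Other chains known from cartilage were highest elsewhere, Col11a1 and Col9a2 in stroma-like and Col9a3 in ureteric epithelium-like cells. Col2a1, the main fibrillar chain of cartilage, stood at 94.6 and 90.1 CPM there, 26.5 and 32.5 CPM in early nephron-like cells and 4.05 and 4.87 CPM in stroma-like cells. Its log2 difference between stroma-like and nephron progenitor-like cells was -4.41 ± 0.16 (edgeR adjusted p = 5.6e-15). After thinning, 30.9% and 24.5% of nephron progenitor-like cells had a Col2a1 UMI, against 1.52% and 0% of erythroid-like cells (0 of 116 cells, which allows up to 2.59% at 3 counts). Their median depths before thinning were 14929 and 13999 UMIs and 7367 and 6219.5 UMIs. Col11a2 was at 11.4 and 12.5 CPM in nephron progenitor-like cells and at 1.17 CPM or less in each other class. Col9a1 was at 22.3 and 19.4 CPM there and at 7.62 and 8.26 CPM in stroma-like cells (log2 difference -1.43 ± 0.21, edgeR adjusted p = 1.3e-05). Col7a1, the anchoring-fibril chain, was at 7.998 and 8.49 CPM in nephron progenitor-like and 6.45 and 7.91 CPM in stroma-like cells, and that difference did not pass the test (log2 -0.24 ± 0.23, edgeR adjusted p = 0.39). Its level in each other class was 2.06 CPM or less.

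By class, the multiplexins Col18a1 and Col15a1 were highest outside the stroma. Col18a1, the source of endostatin and a basement membrane component, stood at 471 and 465 CPM in podocyte-like cells, 397 and 375 CPM in proximal tubule-like cells and 342 and 387 CPM in ureteric epithelium-like cells. In stroma-like cells it was at 27.4 and 29.3 CPM, and it was the 1 member lower there than in the mean of the other classes (log2 difference -2.21 ± 0.12, edgeR adjusted p = 5.5e-13). Podocyte-like cells were above proximal tubule-like cells in both libraries, while proximal tubule and ureteric epithelium-like cells changed places between the libraries. Col15a1 was highest in endothelial-like cells at 160.2 and 169.4 CPM, above stroma-like cells at 59.3 and 89.7 CPM (log2 difference -1.19 ± 0.16, edgeR adjusted p = 2.2e-06). After thinning, 39.9% and 42.6% of endothelial-like cells had a Col15a1 UMI and 0% of 132 and of 116 erythroid-like cells (3 counts would allow up to 2.27% and 2.59%), with median depths of 8358 and 8869 UMIs before thinning in endothelial-like cells.

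The transmembrane collagens each had their own pattern. Col13a1, which organises neuromuscular and cell-matrix contacts, was at 37.9 and 35.9 CPM in nephron progenitor-like cells, 38.6 and 21.2 in endothelial-like cells and 8.58 and 7.74 in stroma-like cells. It was lower in stroma-like than in endothelial-like cells by -1.94 ± 0.24 (log2) and than in nephron progenitor-like cells by -2.21 ± 0.22 (edgeR adjusted p = 5.5e-07 and 2.6e-08). Col25a1 was at 18.3 and 12.7 CPM in endothelial-like and 10.8 and 12.5 CPM in stroma-like cells, a difference that did not pass the test. Col23a1 was at 11.4 and 21.8 CPM in stroma-like and 8.76 and 7.68 CPM in podocyte-like cells. Col26a1, an EMI-domain collagen, was highest in podocyte-like cells at 106.5 and 112.3 CPM, followed by nephron progenitor-like cells at 64.8 and 55.8 and stroma-like cells at 28.5 and 25.3, with no overlap between these. The network chains of type VIII were stromal: Col8a1 stood at 15.6 and 12.4 CPM and Col8a2 at 17.7 and 16.8 CPM in stroma-like cells, and endothelial-like cells had Col8a1 at 4.32 and 1.73 CPM.

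Within the stroma, 26 members could be tested among 8502 genes, each subtype against the mean of the other 5 with edgeR's quasi-likelihood test. In adventitial-type cells 16 members were higher and 1 was lower, where 15.3% of all genes were higher and 10.7% lower, or 26.0% in either direction. The median log2 difference of the members was 1.602, against -0.02 over all genes. In interstitial stroma-like cells 14 were higher and 0 lower (4.28% and 1.63% of all genes, 5.92% together), with a median of 1.20. Cortical stroma-like cells were the reverse, with 4 higher and 18 lower (19.4% and 17.1%, 36.4% together) and a median of -1.76. Contractile mural cells had 4 higher and 15 lower (12.2% and 6.52%, 18.7% together), mesangial stroma-like cells 2 and 11 (9.43% and 5.39%, 14.8% together), and medullary stroma-like cells 8 and 7 (5.19% and 3.39%, 8.57% together). Each subtype is measured against a mean that includes the others, so the high values of adventitial-type cells enter every other comparison. With adventitial-type cells left out of the other side, 25 members could be tested among 9385 genes. Then 9 were higher and 0 lower in medullary stroma-like cells (4.45% and 2.23% of all genes), and 3 and 5 in mesangial stroma-like cells (5.62% and 3.65%). The 67 adventitial-type, 53 interstitial and 74 medullary stroma-like cells are few, and 12 of the 38 members had too few UMIs to be tested.

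**Figure D4:**
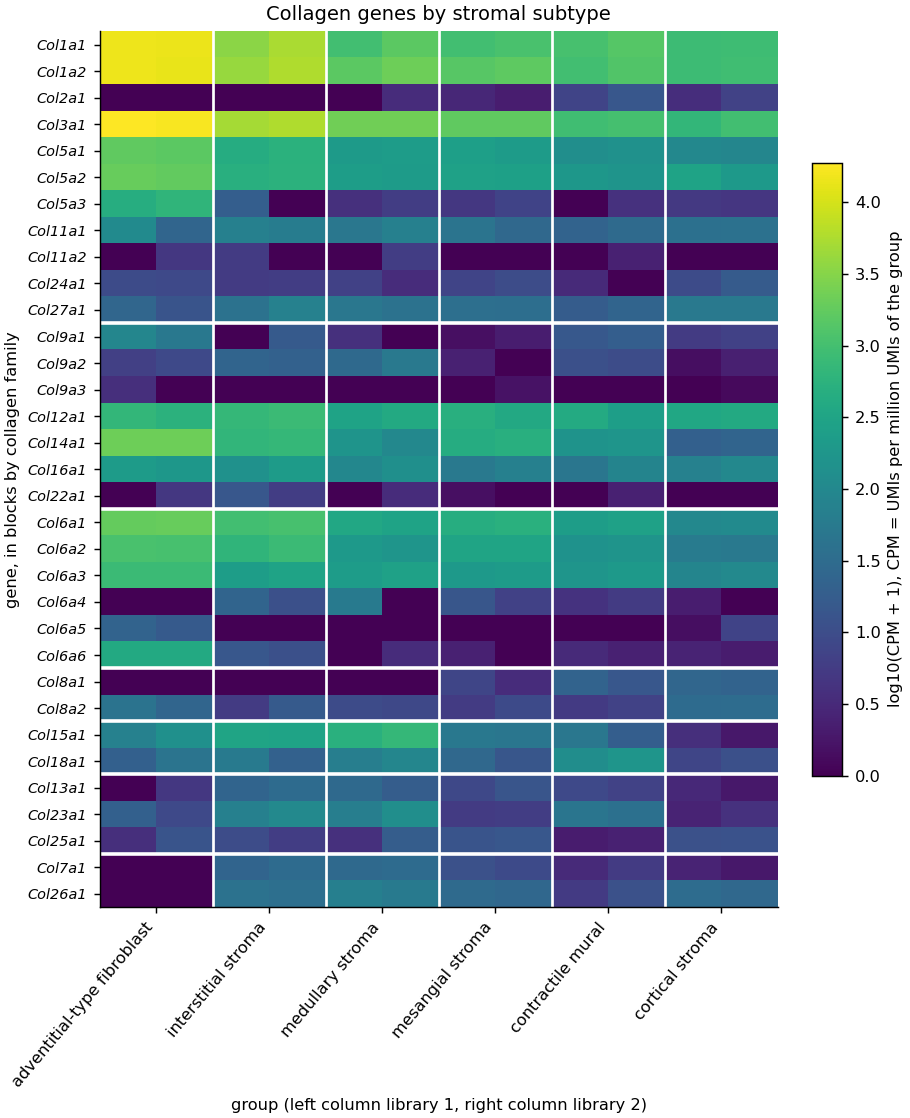
Level of the 33 described collagen genes (rows, in blocks by family) in 6 stromal subtypes (columns, library 1 left and library 2 right), as log10(CPM + 1). Col1a1, Col3a1, Col6a1 and Col6a2 are brightest in adventitial-type and darkest in cortical stroma-like cells, while Col15a1 is brightest in medullary, Col18a1 in contractile mural and Col8a1 in cortical stroma-like and contractile mural cells.

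Adventitial-type fibroblasts, cells of the loose sheath around vessels and organs marked here by Clec3b, Dpt, Tnxb, Pi16 and Mfap5, had the highest level among the subtypes, in both libraries, for 13 of the 33 genes. The share of all genes highest in these cells was not computed. Col6a5, among the 13, entered the 33 only through a subtype. Col1a1 stood at 14784 and 14348 CPM, Col1a2 at 14695 and 13866 CPM and Col3a1 at 18867 and 17060.5 CPM, above every other subtype in both libraries. Their log2 differences were 3.47 ± 0.09, 3.19 ± 0.08 and 3.47 ± 0.07 (edgeR adjusted p = 1.1e-17, 3.4e-18 and 4.3e-19). Col5a3 at 465.1 and 634.3 CPM and Col6a6 at 395.4 and 396.9 CPM were low in every other subtype, at 18.0 CPM or less. Adventitial-type cells held 70.2% of the stroma's Col5a3 UMIs and 75.1% of its Col6a6 UMIs, as means of the libraries, against 22.2% of its Col1a1 UMIs. Col14a1 was at 2161 and 2140 CPM, and after thinning 97.4% and 100% of the cells had a UMI of it. Col26a1 was the 1 member lower in adventitial-type cells, with 0 UMIs in both libraries and at least 12.6-fold higher in medullary stroma-like cells. Markers of other gates were present: the 5 interstitial markers summed to 1462 and 1187 CPM, with 2 of them at 0. The 5 cortical markers summed to 1053 and 798 CPM, against 1562 and 1586 CPM in cortical stroma-like cells. Their part in the values was not tested.

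Interstitial stroma-like cells came second, in both libraries, for Col1a1, Col1a2, Col3a1, Col5a1, Col5a2, Col6a1, Col6a2 and Col14a1. Col1a1 stood at 3351 and 5482 CPM, Col6a1 at 952.4 and 1085 CPM and Col14a1 at 646.9 and 708.5 CPM, with log2 differences of 1.21 ± 0.10, 1.38 ± 0.10 and 1.63 ± 0.13 (edgeR adjusted p = 4.6e-08, 4.6e-09 and 1.1e-08). Col12a1 was higher here than in adventitial-type cells in both libraries, at 714.3 and 834.1 CPM in interstitial stroma-like against 679.5 and 556.5 CPM in adventitial-type cells. Here 5 of 8 tested fibrillar chains passed the test and all 5 were higher. Col22a1, a chain of tissue junctions, was at 13.5 and 5.02 CPM here, from only 3 UMIs and 1 UMI. Markers of other subtypes were raised in these cells. The 5 adventitial markers summed to 287.5 and 291.4 CPM, with Pi16 at 0, against 10.997 to 123.9 CPM in the cortical, mural, mesangial and medullary gates. The 6 mural markers summed to 3832 and 4186 CPM, with Actg2 at 0, above every gate other than the mural one in both libraries. The part of either in these values was not tested.

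Medullary stroma-like cells, which surround the forming loops and collecting ducts, had 8 members higher and 7 lower. The 5 markers of the interstitial gate summed to 2616 and 3030 CPM in these cells, with Proser2 at 0, against 3297 and 3171 CPM in interstitial stroma-like cells, and their part in the values was not tested. Col15a1 stood at 518.1 and 695.2 CPM there, at 310.0 and 306.5 CPM in interstitial stroma-like cells and at 2.81 and 0.851 CPM in cortical stroma-like cells. Its log2 difference was 3.88 ± 0.19 in medullary and -5.99 ± 0.32 in cortical stroma-like cells (edgeR adjusted p = 2.4e-12 and 1.2e-11). After thinning, 62.9% and 76.9% of medullary stroma-like cells had a Col15a1 UMI, against 0.781% and 0.291% of cortical stroma-like cells. Col23a1 at 65.5 and 129.6 CPM, Col9a2 at 28.5 and 52.3 CPM and Col26a1 at 68.3 and 54.8 CPM were also higher, by 2.74 ± 0.29, 3.25 ± 0.49 and 3.06 ± 0.43 on the log2 scale (edgeR adjusted p = 5.4e-07, 7.6e-05 and 3.4e-05). Col6a4 passed the test at 54.1 CPM in library 1 and 0 in library 2, and without library 1 its log2 ratio was -2.35. The call was also lost without the library block (edgeR adjusted p = 0.057) and by DESeq2 (adjusted p = 0.14). Of the fibrillar chains, 4 of 8 were lower and none was higher, but with adventitial-type cells left out of the other side none passed as lower, and Col5a1 and Col1a2 were at 0.17 and 0.16.

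Contractile mural cells, the smooth muscle and pericyte-like cells of vessels, differed by Col18a1. It stood at 125.0 and 169.9 CPM, against 65.5 and 89.7 CPM in medullary and 6.79 and 10.2 CPM in cortical stroma-like cells (log2 difference 2.40 ± 0.22, edgeR adjusted p = 3.6e-08). Col8a1 was at 21.9 and 13.5 CPM and Col23a1 at 45.0 and 37.6 CPM. All 8 tested fibrillar chains were lower in mural cells than in the mean of the other subtypes, with Col3a1 at 909 and 1019.6 CPM and a log2 difference of -1.72 ± 0.10 (edgeR adjusted p = 3.3e-11). A stricter gate left adventitial-type, interstitial and medullary cells out of the comparison because fewer than 20 cells per library remained in each. Of 19 members tested then among 8122 genes, 6 were higher and 1 lower in mural cells, where 11.9% of all genes were higher and 7.34% lower.

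Mesangial stroma-like cells, marked by Itga8, Des and Gata3 among others, were higher than the mean of the other subtypes for Col14a1 and Col26a1. Col14a1 was at 436.5 and 505.1 CPM and Col26a1 at 29.3 and 26.1 CPM, and their log2 differences were 0.996 ± 0.10 and 1.67 ± 0.46 (edgeR adjusted p = 1.2e-06 and 0.018). Col26a1 was no higher here than in cortical stroma-like cells in either library, and medullary stroma-like cells had more. Adventitial-type cells, at 0 UMIs of Col26a1, lower the mean of the others. Col1a1 was at 963.8 and 1127 CPM, at -1.25 ± 0.12 from the mean of the others on the log2 scale (edgeR adjusted p = 3.3e-07). With cells over 5% mitochondrial UMIs removed, only cortical stroma-like cells were left to compare with, and the log2 differences were 0.20 for Col1a1 and -0.23 for Col26a1 (edgeR adjusted p = 0.24 and 0.72). Col3a1, Col5a1 and Col1a2, called lower before, were then higher, at 0.89, 1.37 and 0.78 (edgeR adjusted p = 2.1e-16, 1.6e-22 and 1.4e-12). A stricter gate, which compared fewer subtypes, also turned these 3, to 0.98, 1.16 and 0.72 (edgeR adjusted p = 0.0024, 0.013 and 0.047). Over all alternatives the adjusted p of edgeR, DESeq2 or limma ran from 2.8e-51 to 0.91 for Col1a1 and from 0.0060 to 0.93 for Col26a1. Col6a1 at 456.4 and 525.5 CPM did not pass the test. The Col3a1 count was 1.74 (1.64 to 1.84) and 1.54 (1.45 to 1.63) times that of Col1a1 in these cells. In contractile mural cells it was 0.847 (0.771 to 0.930) and 0.720 (0.651 to 0.795), so the groups did not overlap.

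Cortical stroma-like cells, the progenitor-containing layer under the capsule marked here by Foxd1 and Ntn1 among others, were low in most chains. Col14a1 at 19.7 and 23.0 CPM lay -4.33 ± 0.15 from the mean of the other subtypes on the log2 scale, Col6a2 at 59.9 and 52.2 CPM lay -2.74 ± 0.13, and Col3a1 at 681.6 and 972.8 CPM lay -1.99 ± 0.10 (edgeR adjusted p = 3.0e-14, 1.0e-12 and 4.0e-12). The type VIII chains went the other way. Col8a1 was at 25.3 and 22.1 CPM, with 0 UMIs in adventitial-type, interstitial and medullary cells, and Col8a2 was at 30.2 and 30.9 CPM with a log2 difference of 1.65 ± 0.24 (edgeR adjusted p = 4.0e-06 for Col8a1 and 1.7e-05 for Col8a2). Col8a2 was also higher in adventitial-type cells, at 41.8 and 23.3 CPM from 15 and 6 UMIs (log2 difference 1.96 ± 0.44, edgeR adjusted p = 0.0018). Col27a1 at 52.4 and 51.6 CPM and Col26a1 at 32.1 and 26.4 CPM were the other members higher in cortical stroma-like cells. For Col26a1 the mean of the others includes adventitial-type cells at 0 UMIs, and medullary stroma-like cells had more. The type V chains were also out of step: the Col5a2 count was 3.07 (2.74 to 3.43) and 2.32 (2.03 to 2.66) times that of Col5a1 here and between 0.967 and 1.39 times in the other subtypes. With a stricter gate, or with cells over 5% mitochondrial UMIs removed, only 3 or 2 subtypes with at least 20 cells per library remained, and 2 of 19 tested members were higher and 9 lower in each case. Of all genes, 6.02% were higher and 7.99% lower with the stricter gate (8122 genes), and 6.28% and 8.51% with the mitochondrial limit (8887 genes).

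Collagen RNA made up a smaller share of the UMIs of dividing stroma-like cells than of the others. Cells with a high score for Mki67, Top2a and 5 other mitotic genes numbered 255 and 240, and the 38 genes made up 0.394% and 0.440% of their UMIs, against 0.853% and 0.915% in the remaining stroma-like cells. The dividing cells were deeper, at a median of 13563 and 12607 UMIs against 9365 and 8973. Counted per cell, they held a mean of 56.7 and 58.7 collagen UMIs against 83.1 and 83.5. By edgeR's quasi-likelihood test on 12172 genes, 20 of 30 tested members were lower in dividing cells and 2 were higher, where 15.7% of all genes were lower and 17.7% higher, or 33.4% in either direction. The median log2 difference of the members was -0.81, against -0.02 over all genes. Col1a1 was at 723.0 and 810.6 CPM in dividing and 1704 and 1986 CPM in other stroma-like cells (log2 difference -1.22 ± 0.04, edgeR adjusted p = 9.4e-12). Col9a2 had 1 UMI in the dividing cells of each library, against 4.03 and 7.83 CPM in the others. The 2 higher genes were Col8a1, at 25.1 and 14.4 against 12.4 and 11.7 CPM, and Col25a1, at 14.7 and 17.5 against 9.53 and 10.6 CPM (edgeR adjusted p = 0.0070 and 0.0086). This fit had 1 residual degree of freedom, so its spread rests on the 2 libraries together with the trend over all genes.

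The share of dividing cells differed between subtypes. Of the cortical stroma-like cells, 101 and 90 were dividing and 287 and 266 were not. Of the interstitial stroma-like cells 1 and 1 were dividing, and 28 and 23 were not. Of the adventitial-type cells 2 and 5 were dividing and 38 and 22 were not, so their share rests on few cells and differed between the libraries. The same comparison within the cortical gate, added after the data were seen, tested 20 members and called 11 lower and 0 higher, where 7.59% of all genes were lower and 11.9% higher. The median log2 difference was then -0.36, against -0.02 over all genes. Col1a1 was lower by -0.49 ± 0.06 and Col3a1 by -0.24 ± 0.06 (edgeR adjusted p = 2.3e-13 and 0.0012), which is smaller than in the whole stroma. Of the 20 members lower in dividing stroma, 15 were tested there and 11 passed. The others were Col9a1 at -1.12 ± 0.59, Col11a1 at -0.31 ± 0.20, Col6a2 at -0.31 ± 0.16 and Col16a1 at -0.18 ± 0.13. Col8a1 and Col25a1 did not pass either, at 0.16 ± 0.24 and -0.21 ± 0.37.

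**Figure D5:**
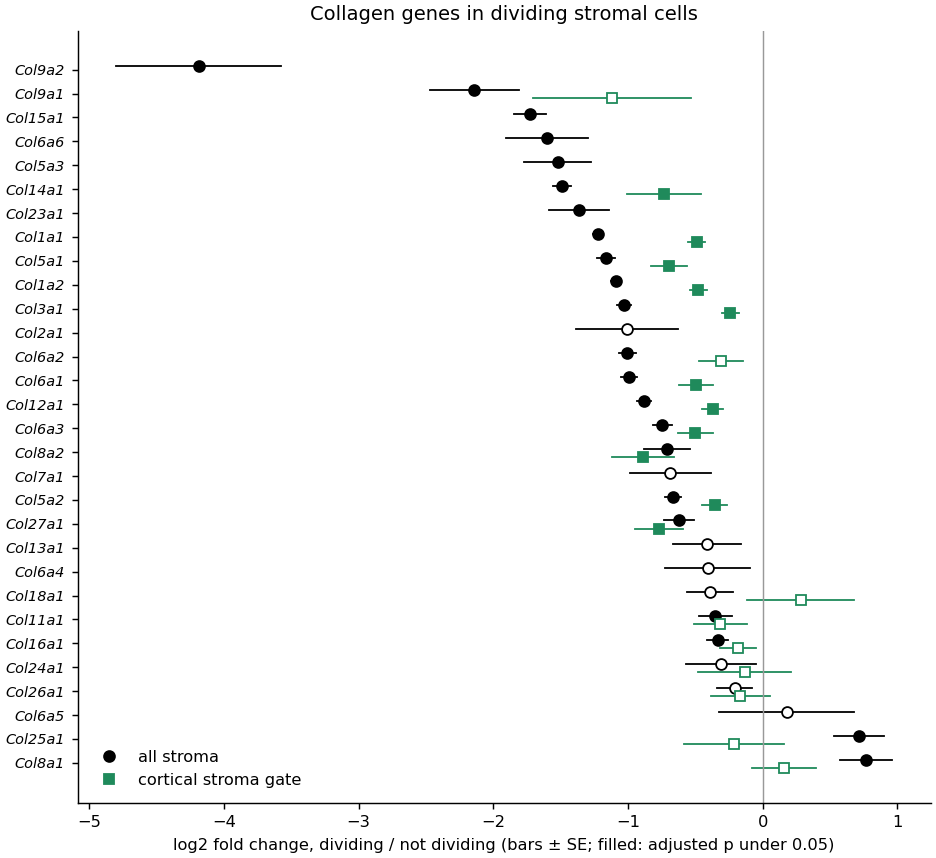
Log2 difference between dividing and other cells (x axis, with bars of 1 SE) for the 30 tested collagen genes (y axis), in all stroma-like cells (black circles) and within the cortical stroma gate (green squares, 20 genes), filled where the edgeR adjusted p is under 0.05. Most filled points lie left of 0, and the green squares lie nearer to 0 than the black circles for Col1a1 (-0.49 against -1.22) and Col3a1.

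The genes that modify, cleave, bind and break down collagen were read from lists that hold no collagen. These lists were chosen with earlier results of these data known. Of 19 genes for chain modification, folding and secretion, 17 were higher and 1 lower in stroma-like cells than in the mean of the other classes, where 32.5% of all genes were higher and 14.6% lower. The largest differences were those of the prolyl hydroxylases P4ha3 (log2 3.97 ± 0.31) and P4ha2 (3.81 ± 0.24) and of P3h3 (3.05 ± 0.09). Of 12 tested genes for procollagen cleavage and crosslinking, 11 were higher and 0 lower, led by the lysyl oxidases Loxl4 and Lox and the N-propeptidase Adamts2 (7.38 ± 0.66, 7.196 ± 0.10 and 6.54 ± 0.24). Of 15 tested proteoglycans and fibril partners, 14 were higher and 0 lower, led by Ogn, Dcn and Aspn, at 8.12 ± 0.11, 8.06 ± 0.12 and 7.97 ± 0.16. Of 8 collagen receptors, 5 were higher and 1 lower: Ddr2, a receptor kinase for fibrillar collagen, stood at 58.3 and 54.8 CPM in stroma-like cells and 0.649 and 0.374 CPM in podocyte-like cells. Of 12 breakdown genes, 8 were higher and 0 lower, with Fap, Ctsk and Mmp2 in front.

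Through the subtypes the lists differed from one another. In adventitial-type cells 13 of 14 tested fibril partners, 13 of 17 modification genes and 8 of 9 cleavage and crosslinking genes were higher and none was lower, where 15.3% of all genes were higher and 10.7% lower. Of 5 tested receptors 2 were higher and 0 lower, with a median log2 difference of -0.02, and of 8 breakdown genes 7 were higher and 1 lower. Postn, a crosslinking scaffold, was at 4330 and 4390 CPM there and at 597.5 and 788.9 CPM in interstitial stroma-like cells (log2 difference 5.95 ± 0.19, edgeR adjusted p = 2.5e-16). Dcn, which binds fibrils and limits their width, was at 6129 and 7884 CPM there and at 41.2 and 43.4 CPM in cortical stroma-like cells. Cortical stroma-like cells were lower for 12 of 14 partners, 8 of 17 modification genes and 5 of 9 cleavage and crosslinking genes, and higher for 0, 1 and 1, where 17.1% of all genes were lower and 19.4% higher. Of 5 receptors 4 were lower there and 0 higher, and of 8 breakdown genes 3 were lower and 2 higher. In interstitial stroma-like cells 9 of 14 partners were higher and 1 lower, where 4.28% of all genes were higher and 1.63% lower, but only 1 of 17 modification genes passed the test, Plod2, which was lower (log2 difference -1.002 ± 0.28, edgeR adjusted p = 0.038). Dividing cells were lower for 13 of 14 partners, 10 of 18 modification genes and 6 of 11 cleavage and crosslinking genes, and higher for none of these, where 15.7% of all genes were lower and 17.7% higher. Within the cortical gate 6 of 11 partners, 5 of 17 modification genes and 3 of 6 cleavage and crosslinking genes were lower and none was higher, where 7.59% of all genes were lower and 11.9% higher.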

How the data were processed

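Single-cell 3' RNA libraries of 2 kidney samples were used. The authors deposited UMI counts per gene and barcode, made with Cell Ranger 6.0.1 on mm10, per the submitters' processing notes (the file headers name format version 4). The deposited counts are raw and unfiltered. Barcodes with at least 2000 UMIs and at most 10% mitochondrial UMIs were kept. Those with the highest Scrublet doublet scores (310 and 212 barcodes, 4.98% and 4.12%) were removed. Their number followed an assumed rate of 0.8% per 1000 barcodes and was not a count of doublets detected.

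Cells were scored on marker lists without collagens. A class needed a score of at least 0.1, 2 detected markers and 1.5 times the next best score. Subtypes were gated likewise within the stroma, and dividing cells needed a score of at least 0.25. These limits were set after the data were seen. Of 2523 stroma-like cells, 35 lay near a limit, as did 56 of 372 mesangial and 12 of 53 interstitial stroma-like cells. Of 295 erythroid-like cells 3 did, but 266 cells in all whose best list was the erythroid one lay near a limit.

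UMIs were summed per library and group and tested with edgeR 4.0.16 (quasi-likelihood, TMM, filterByExpr) in R 4.3.3, with Benjamini-Hochberg adjustment over all genes and a threshold of 0.05. Both libraries give every class, so the library entered as a block. CPM are UMIs per 1000000 UMIs of the group. Intervals of counts and shares are exact 95% intervals and, like the 3-count limit, cover counting error only. Genes with at least 5 CPM in both libraries in any class or subtype are described with values, and of each pathway list the 3 with the largest called change. On simulated data, 190 of 200 changed genes were recovered for stroma-like against nephron progenitor-like cells (90 of 100 at 2-fold, 100 of 100 at 4-fold, 13 false calls) and 151 of 200 for adventitial-type cells (56 and 95, 8 false calls).

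Alternatives were other depth, mitochondrial and gate limits, no doublet removal, Leiden clusters (scanpy 1.11.5), RLE size factors, no count filter, no block, DESeq2 1.42.0, cells weighted equally and each library left out. The comparison with cells weighted equally was tested with limma 3.58.1. The members follow the naming rule alone, but the rule and the gene lists were chosen with earlier results of these data known.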

Additional observations from a re-analysis of the deposited data

Results flagged for a closer look

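Collagen UMIs were also found in barcodes that entered none of the edgeR comparisons. In barcodes of 100 to 500 UMIs the 38 genes made up 0.0984% of UMIs in library 1 and 0.109% in library 2. In the 9 and 7 cells of the mesothelial gate they made up 2.18% and 1.42%, above the 0.737% and 0.782% of stroma-like cells. These few cells were mixed by their markers: ureteric markers summed to 4356 and 1089 CPM, against 3099 and 3310 CPM in ureteric epithelium-like cells, and podocyte markers to 73.2 and 819.9 CPM. In library 1 their share per cell had a 10th percentile of 0.0241% and a median of 3.39%. In cells without a class they made up 0.0558% and 0.0658%. Erythroid-like cells, which should make no collagen, stood at 0.00387% and 0.00368%.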

How the results depend on the processing

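Of 262 called member results, 192 kept call and direction under every alternative tested, 67 missed the threshold under at least 1 and 25 changed direction. Leaving out a library gives no call. The log2 value moved by more than 1 SE, in the same direction, for 148 results without library 1 and for 129 without library 2. Without the replicate block the counts of called members were 28, 28, 29, 28 and 27 for the class comparisons in the order of the text, 18 for adventitial-type, 13 interstitial, 20 cortical, 19 mural, 12 mesangial and 14 medullary cells, and 18 for division, all within 1.5 times of those with it. With a gate margin of 2 the called members were 7 in mural and 11 in cortical cells. At most 5% mitochondrial UMIs gave 11 in cortical cells. With cells weighted equally they were 9 in mural and 8 in mesangial cells. With adventitial-type cells left out of the other side they were 9 in medullary and 8 in mesangial cells, and within the cortical gate 11 were called for division (both chosen after seeing the data). The share of stroma-like cells with Col1a1 was 95.3% thinned to 8000 UMIs and 96.1% unthinned, and that of podocyte-like cells with Col1a2 81.5% and 77.1%.

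Log2 differences that changed direction were as follows. At margin 2 they were, in mural cells, 0.75 for Col6a3, 1.73 for Col15a1, 0.020 for Col16a1, 0.55 for Col6a2, 0.48 for Col6a1, 0.41 for Col1a1 and 1.34 for Col14a1. In cortical cells they were 0.40 for Col5a2, 0.55 for Col16a1 and 0.29 for Col12a1, and in mesangial cells 0.98 for Col3a1, 0.078 for Col5a2, 1.16 for Col5a1 and 0.72 for Col1a2. At 5% mitochondrial UMIs they were -0.051 for Col23a1 and -0.47 for Col2a1 against podocyte-like cells, 0.13 for Col5a2 and 0.54 for Col16a1 in cortical cells. In mesangial cells they were 0.89 for Col3a1, 1.37 for Col5a1, -0.23 for Col26a1, 0.78 for Col1a2 and 0.20 for Col1a1. Both settings compare fewer subtypes. From Leiden clusters they were -0.14 for Col2a1 against podocyte-like cells, -1.23 for Col8a1 in mural and 0.048 for Col16a1 in cortical cells. In medullary cells they were 0.19 for Col5a1, 0.32 for Col1a2, 0.21 for Col6a2 and 0.27 for Col6a1. With adventitial-type cells left out they were 0.17 for Col5a1 and 0.16 for Col1a2 in medullary, and 0.0040 for Col5a2 and 0.31 for Col5a1 in mesangial cells. Col25a1 in dividing cells was -0.21 within the cortical gate, and Col6a4 in medullary cells -2.35 without library 1 and 3.91 without library 2. The cause was not tested. Leaving out 1 library leaves no residual degrees of freedom, so it gives values and no counts of calls. Groups of few cells limit what can be detected for low members.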
